A study of Homo sapiens with 4 samples.

Results

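The genes described here are the aminoacyl-tRNA synthetases and the enzymes that act beside them. They were chosen as the rows that the deposited annotation places in the KEGG pathway for aminoacyl-tRNA biosynthesis. That rule matched 44 rows, and leaving out CARS1, which was not analysed here, left 43 genes of the 28973 in the table. The set holds 20 cytosolic synthetases or synthetase subunits, 17 mitochondrial synthetases, recognised by a symbol ending in 2, and 6 enzymes that modify an amino acid already attached to its tRNA. The rule used annotation alone and no measured value.

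RNA was sequenced from TOV-112D, a human cell line derived from an endometrioid ovarian carcinoma, in 4 libraries. In the 2 libraries labelled PA the cells had received palmitic acid, a saturated fatty acid, at 200 µM for 24 h. In the 2 libraries labelled BSA they had received bovine serum albumin, the negative control, for which the labels give the same dose and time. All cells were one line, so the comparison covers a single genetic background, and nothing says that replicates came from separate cultures, so a p-value here reflects how far these particular libraries scatter, and that scatter may be technical. The description of the PA libraries also names a knockdown of SPTLC2, and the treatment text names shCON and shZDHHC15 cells without tying them to a library. SPTLC2 had 2194 and 1740 counts in the libraries labelled PA, against 1524 and 1080 in the libraries labelled BSA. ZDHHC15 had 190083 and 167798 counts in the libraries labelled PA, against 291 and 225 in the libraries labelled BSA. Scaled to each library's total counts (CPM), ZDHHC15 had 6408 and 7073.5 in libraries labelled PA, against 10.2 and 7.10 in libraries labelled BSA. SPTLC2 had 74.0 and 73.3 CPM against 53.2 and 34.1 CPM, so it was not lower under the label naming its knockdown. That label does not name ZDHHC15. The groups thus differed in ZDHHC15 along with the palmitic acid label. The parts of these in the results below cannot be told apart here, and this was not tested. PA and BSA below stand for libraries labelled that way.

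Each aminoacyl-tRNA synthetase joins one amino acid to its matching tRNAs, which then deliver it to the ribosome. Most human cells make separate enzymes for the cytosol and for mitochondria, all encoded in the nucleus, while GARS1 (glycine) and KARS1 (lysine) serve both compartments from one gene each. Several cytosolic enzymes are held together, with the scaffold proteins AIMP1, AIMP2 and EEF1E1, in the multi-synthetase complex. Many cytosolic synthetase genes are known targets of ATF4, the transcription factor of the integrated stress response.

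Total counts were 29662410 and 23722074 in PA replicates 1 and 2 and 28657038 and 31695944 in BSA replicates 1 and 2. The 43 genes together took 0.704% and 0.677% of the counts in the PA libraries and 0.698% and 0.807% in the BSA libraries. The BSA libraries differed from each other more than the PA libraries did. Over all genes tested, the log2 ratio between replicates had an SD of 0.483 for PA and 1.04 for BSA. For that reason each result is also given against either BSA library singly. Levels are in CPM, a gene's counts scaled to the library's total counts. Mitochondrially encoded transcripts took 4.56% and 3.70% of counts in the PA libraries and 3.75% and 1.88% in the BSA libraries. The 7 epithelial markers summed to 2284 and 2547 CPM in the PA libraries and 1574 and 1922 CPM in the BSA libraries, with 3 of the 7 above 10 CPM in every library and KRT19 at 0 in PA replicate 1. The 3 endothelial markers summed to 3.37 and 3.12 CPM in the PA libraries and 0.279 and 0.536 CPM in the BSA libraries. The 4 leukocyte markers in the table, of 5, summed to 1.96 and 0.801 CPM in the PA libraries and 3.70 and 5.55 CPM in the BSA libraries. The 3 fibroblast markers in the table, of 4, summed to 123 and 156 CPM in the PA libraries and 124.5 and 115 CPM in the BSA libraries. The part of these differences in the results below was not tested.

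No synthetase gene passed the test across all genes, and the largest differences between the groups rested on BSA replicate 1. Both PA libraries lay below both BSA libraries in 18 of the 43 genes and above them in 5, against 32.7% and 26.5% of all genes tested. Among these were the threonine enzyme TARS1 and the mitochondrial WARS2 and VARS2, which were lower in the PA libraries, and the mitochondrial leucine enzyme LARS2, which was higher. All 43 genes passed the filter on low counts. With edgeR's quasi-likelihood test and Benjamini-Hochberg adjustment at 0.05 over 17449 genes, 0 of the 43 were called, and 0.0% of all genes were called in either direction. DESeq2 also called 0 of the 43, while calling 6.11% of all genes higher and 4.34% lower. At an unadjusted p under 0.05, edgeR had 1 cytosolic gene higher (VARS1) and 4 lower, among them NARS1, QARS1 and TARS1, 1 mitochondrial gene higher (LARS2) and 1 lower (WARS2), and 0 of the 6 other enzymes. Over all genes tested, 13.1% were higher and 11.2% lower at that level, so the share of the 43 that was lower was close to the background and the share that was higher was below it. With BSA replicate 1 left out, 8 of the 43 were called higher and 13 lower, against 25.3% and 22.6% of all genes. With BSA replicate 2 left out, 13 were called higher and 18 lower, against 27.3% and 30.0% of all genes. Those fits take their spread from the PA libraries alone and assume that the lone BSA library varies as they do. An exact permutation test of 2 libraries against 2 cannot go below p = 0.333.

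The median log2 fold change of PA over BSA was -0.21 for the 20 cytosolic genes, -0.34 for the 17 mitochondrial genes, -0.21 for the 6 other enzymes and -0.12 for all genes tested. These are bulk levels, so fewer cells carrying an mRNA and less mRNA per cell cannot be told apart. On levels scaled to total counts, the PA mean stood at a median log2 ratio of -0.26 to BSA replicate 1 for the cytosolic genes and -0.37 for the mitochondrial genes, against -0.15 for all genes. Relative to BSA replicate 2 the medians were -0.19 and -0.15, against -0.05 for all genes. The difference between the cytosolic and the mitochondrial medians thus changed its sign with the BSA library used. Between BSA replicates 2 and 1 themselves the median log2 ratios were -0.05 and -0.07, against -0.02 for all genes, with single genes spread between -2.20 and 1.13.

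**Figure D1:**
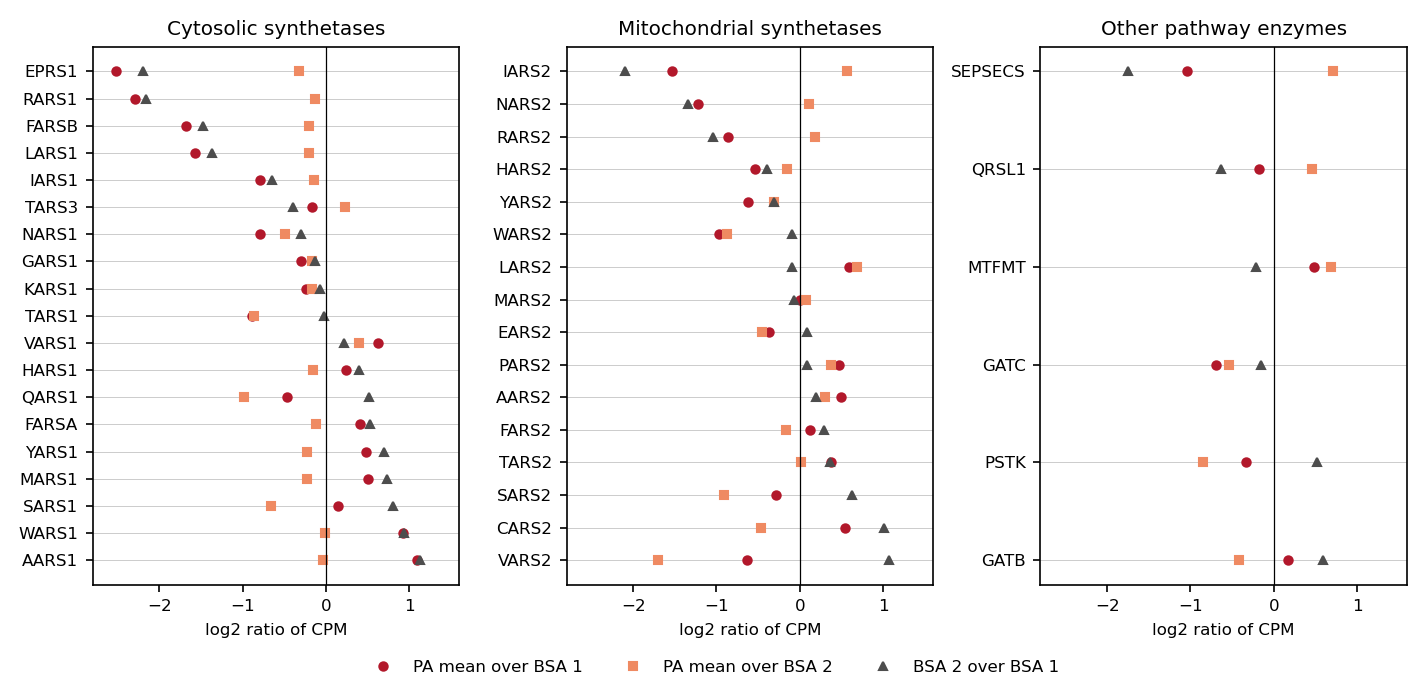
Log2 ratios of CPM for the genes named on the left of each of 3 panels by class, each gene on its own line. Circles are the PA mean over BSA replicate 1, squares the PA mean over BSA replicate 2 and triangles BSA replicate 2 over BSA replicate 1, with 0 marking equal levels. For EPRS1, RARS1, FARSB and LARS1 the circles and triangles lie together far left of 0 and the squares near 0, while for TARS1, WARS2 and LARS2 both PA points lie together on one side of 0.

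Among the cytosolic genes, TARS1, the threonine enzyme, had 473 and 399 CPM in the PA libraries, against 806 and 790 CPM in the BSA libraries. Here the BSA libraries lay close to each other and above both PA libraries. The mean was 436 ± 52.7 CPM in PA and 798 ± 10.9 CPM in BSA (SD, n = 2 each), which edgeR fitted as -0.80 ± 0.22 (SE) on the log2 scale, with adjusted p = 0.134. The PA mean was 1.85-fold below BSA replicate 1 and 1.82-fold below BSA replicate 2. With a trend of level on GC content and transcript length removed, its log2 ratios were -0.36 to BSA replicate 1 and -0.94 to BSA replicate 2. TARS1 (ENSG00000113407) lies on chromosome 5, from 33440696 to 33468091 on the plus strand (hg38).

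VARS1, the valine enzyme, which binds elongation factor 1 rather than the multi-synthetase complex, was the 1 cytosolic gene of 20 whose PA libraries were both above both BSA libraries. It had 284 and 299 CPM in the PA libraries, against 189 and 220 CPM in the BSA libraries. The log2 fold change was 0.58 ± 0.21 (SE), with an edgeR adjusted p of 0.192. With the trend on GC content and transcript length removed it was 0.28 ± 0.15 (SE). The VARS1 transcript had 62.6% GC. VARS1 (ENSG00000204394) lies on chromosome 6, from 31777518 to 31795752 on the minus strand (hg38). For 10 of the 20 cytosolic genes both PA libraries were below both BSA libraries, against 32.7% of all genes tested, and 26.5% of all genes had both PA libraries above.

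QARS1 and NARS1, the glutamine and asparagine enzymes, were singled out after their values were seen, because their unadjusted p was under 0.05. QARS1 had 139.6 and 147 CPM in the PA libraries, against 198 and 283 CPM in the BSA libraries. Its log2 fold change was -0.68 ± 0.26 (SE), with an edgeR adjusted p of 0.203. NARS1 had 128.5 and 106 CPM in the PA libraries, against 202 and 164 CPM in the BSA libraries. For both genes the PA libraries were below both BSA libraries.

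The largest log2 fold changes among the cytosolic genes belonged to EPRS1 and RARS1, and they rested on BSA replicate 1. EPRS1, the bifunctional enzyme for glutamate and proline, had 98.1 and 66.3 CPM in the PA libraries, against 462 and 101 CPM in BSA replicates 1 and 2. RARS1, the arginine enzyme, had 28.2 and 27.3 CPM in the PA libraries, against 136 and 30.3 CPM in BSA replicates 1 and 2. In both genes BSA replicate 1 was the library that stood apart, and BSA replicate 2 was close to the PA libraries. The PA mean of EPRS1 stood at a log2 ratio of -2.52 to BSA replicate 1 and -0.32 to BSA replicate 2. For RARS1 these log2 ratios were -2.29 and -0.13. The edgeR log2 fold changes of PA over BSA were -1.69 ± 0.72 (SE) for EPRS1 and -1.49 ± 0.69 (SE) for RARS1, with adjusted p of 0.230 and 0.254. Without BSA replicate 1 they came to -0.23 and -0.06.

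FARSB and LARS1 had the same shape. FARSB, the beta subunit of the phenylalanine enzyme, had 30.3 and 24.2 CPM in the PA libraries, against 86.9 and 31.2 CPM in BSA replicates 1 and 2. LARS1, the leucine enzyme of the complex, had 89.2 and 62.2 CPM in the PA libraries, against 222 and 85.8 CPM in BSA replicates 1 and 2. FARSA, the alpha subunit that pairs with FARSB, did not share the shape, with 209 and 212 CPM in the PA libraries, against 158.5 and 229 CPM in BSA replicates 1 and 2. The subunits of one enzyme thus lay on opposite sides of BSA replicate 1.

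AARS1 and WARS1, the alanine and tryptophan enzymes, showed the opposite shape, with BSA replicate 1 as the low library. AARS1 had 1442 and 1438 CPM in the PA libraries, against 674 and 1477 CPM in BSA replicates 1 and 2. WARS1 had 849 and 812 CPM in the PA libraries, against 435 and 833 CPM in BSA replicates 1 and 2. The PA mean was 2.14-fold above BSA replicate 1 for AARS1 and 1.91-fold above it for WARS1, and within a factor of 1.03 of BSA replicate 2 for both. The edgeR log2 fold changes were 0.48 ± 0.44 (SE) for AARS1 and 0.45 ± 0.38 (SE) for WARS1, with adjusted p of 0.509 and 0.476. In 7 of the 20 cytosolic genes (AARS1, FARSA, HARS1, MARS1, SARS1, WARS1, YARS1) the PA mean was above BSA replicate 1 and below BSA replicate 2, a pattern held by 14.2% of all genes tested. TARS3, a paralogue of TARS1, had the reverse, as did 17.3% of all genes.

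GARS1 and KARS1, which supply both compartments, differed little between the libraries. GARS1 had 457 and 434 CPM in the PA libraries, against 547 and 501 CPM in the BSA libraries. KARS1 had 206 and 199.9 CPM in the PA libraries, against 239 and 227 CPM in the BSA libraries. Both genes were lower in each PA library than in either BSA library, with log2 fold changes of -0.16 ± 0.21 and -0.13 ± 0.19 (SE), and edgeR adjusted p of 0.643 and 0.698. Removing the trend with GC content turned the KARS1 value to 0.01. The remaining cytosolic genes (FARSA, HARS1, IARS1, MARS1, SARS1, TARS3, YARS1) had log2 fold changes between -0.42 and 0.19.

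**Figure D2:**
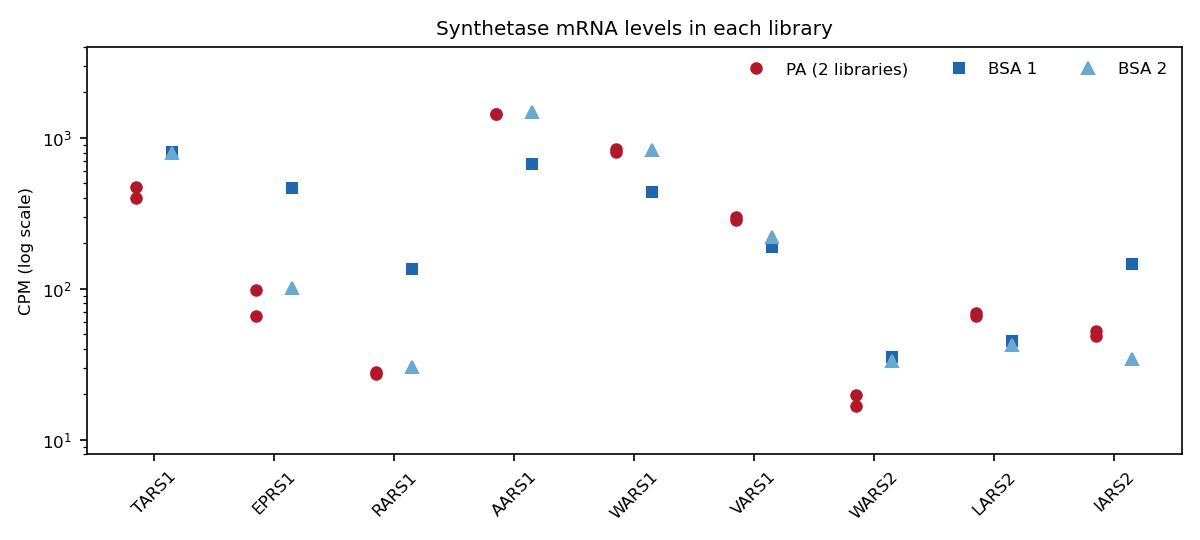
CPM (log scale) of named synthetase genes in each library, with the 2 PA libraries as circles to the left and BSA replicate 1 (square) and BSA replicate 2 (triangle) to the right of each gene. TARS1 and WARS2 are lower and LARS2 higher in both PA libraries than in both BSA libraries, while EPRS1, RARS1 and IARS2 have BSA replicate 1 as the one high library and AARS1 and WARS1 have it as the one low library.

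The mitochondrial genes had fewer reads, and those given in every library were taken for the size of a difference between groups or between the BSA libraries. LARS2, the mitochondrial leucine enzyme, had 69.0 and 66.2 CPM in the PA libraries, against 44.8 and 42.1 CPM in the BSA libraries. Its replicates lay close together within each group. The mean was 67.6 ± 2.0 CPM in PA and 43.5 ± 1.9 CPM in BSA (SD, n = 2 each), which edgeR fitted as 0.71 ± 0.21 (SE) on the log2 scale, with adjusted p = 0.150. The PA mean stood at a log2 ratio of 0.59 to BSA replicate 1 and 0.68 to BSA replicate 2, and with the trend removed at 0.30 and 0.59. LARS2 (ENSG00000011376) lies on chromosome 3, from 45388561 to 45554726 on the plus strand (hg38).

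WARS2, the mitochondrial tryptophan enzyme, was lower in the PA libraries, with 16.7 and 19.9 CPM there, against 35.5 and 33.3 CPM in the BSA libraries. The log2 fold change was -0.84 ± 0.27 (SE), with an edgeR adjusted p of 0.163. Both PA libraries were below both BSA libraries, and the replicates of each group lay close together. The PA mean stood at a log2 ratio of -0.96 to BSA replicate 1 and -0.87 to BSA replicate 2. With the trend with GC content and length removed, these WARS2 ratios were -0.14 and -0.83, and the BSA libraries themselves stood apart by 0.68 (replicate 2 over replicate 1), against -0.10 before.

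VARS2, the mitochondrial valine enzyme, had 13 and 18 counts in the PA libraries, against 26 and 61 counts in the BSA libraries, so its values carry large counting error. Those counts came to 0.438 and 0.759 CPM in the PA libraries and 0.907 and 1.93 CPM in the BSA libraries. The log2 fold change was -1.19 ± 0.59 (SE), with an edgeR adjusted p of 0.274. Among mitochondrial genes 4 of 17 (LARS2 higher, and 3 lower, among them VARS2 and WARS2) lay past 1.5-fold the same way against both BSA libraries, as did 2 of 20 cytosolic genes, both lower and TARS1 among them. Over all genes tested, 12.7% lay past that fold on the high side and 14.7% on the low side. The mitochondrial count was 2 with TMM-normalised library sizes, 1 on FPKM, 2 with the trend with GC content removed and 2 without PA replicate 1. The cytosolic count was 1 with the trend removed and 4 without PA replicate 1. With the trend with GC content removed, the genes past that fold included QARS1 and VARS2 on the low side and MTFMT on the high side, against 13.2% and 14.4% of all genes in that fit.

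AARS2 and PARS2, the mitochondrial alanine and proline enzymes, were higher in both PA libraries than in both BSA libraries. AARS2 had 53.3 and 51.3 CPM in the PA libraries, against 37.0 and 42.4 CPM in the BSA libraries. PARS2 had 17.1 and 10.7 CPM in the PA libraries, against 9.74 and 10.4 CPM in the BSA libraries, so its second PA library was at the level of the BSA libraries. The log2 fold changes were 0.47 ± 0.24 (SE) for AARS2 and 0.54 ± 0.36 (SE) for PARS2, with edgeR adjusted p of 0.280 and 0.386. With the trend on GC content and transcript length removed they were 0.18 and 0.41, and the AARS2 ratio to BSA replicate 1 was 0.07 (log2). In 6 of the 17 mitochondrial genes, among them EARS2, SARS2 and YARS2, both PA libraries were below both BSA libraries, against 32.7% of all genes tested.

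IARS2, the mitochondrial isoleucine enzyme, had its group difference decided by BSA replicate 1. It had 48.8 and 52.2 CPM in the PA libraries, against 146 and 34.1 CPM in BSA replicates 1 and 2, so the PA libraries lay between the BSA libraries. The edgeR log2 fold change was -0.75 ± 0.66 (SE), with an adjusted p of 0.498. Without BSA replicate 1 it was 0.63. EPRS1 and IARS2, which both had BSA replicate 1 as the high library, lie on chromosome 1 with 47601 bases between them. Whether other genes lie in that gap was not examined. HARS1 and HARS2, the cytosolic and mitochondrial histidine enzymes, overlap by 108 bases on opposite strands of chromosome 5. The use of strand in counting is not given in the sources used here, so reads in that overlap cannot be assigned to one of them, and their values are uncertain to that extent.

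The 6 enzymes that work on charged tRNA had low levels and no shared direction. GATB, GATC and QRSL1 are the subunits of the mitochondrial amidotransferase that turns glutamyl-tRNA into glutaminyl-tRNA. GATB had 17.8 and 19.3 CPM in the PA libraries, against 16.4 and 24.7 CPM in the BSA libraries. GATC had 22.4 and 19.4 CPM in the PA libraries, against 33.6 and 30.2 CPM in the BSA libraries. QRSL1 had 34.0 and 37.4 CPM in the PA libraries, against 40.3 and 25.9 CPM in the BSA libraries. Of the 3 subunits, GATC alone had groups that did not overlap, and it was lower in PA with a fitted log2 difference of -0.54 ± 0.26 (SE) and an edgeR adjusted p of 0.269.

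MTFMT, which formylates the methionine of the mitochondrial initiator tRNA, had 13.5 and 12.1 CPM in the PA libraries, against 9.14 and 7.92 CPM in the BSA libraries. Its log2 fold change was 0.65 ± 0.30 (SE), with an edgeR adjusted p of 0.248. PSTK and SEPSECS make selenocysteine on its tRNA from serine, PSTK by phosphorylating it and SEPSECS by adding selenium. PSTK had 4.32 and 3.20 CPM in the PA libraries, against 4.68 and 6.72 CPM in the BSA libraries. SEPSECS had 10.1 and 10.8 CPM in the PA libraries, against 21.5 and 6.37 CPM in BSA replicates 1 and 2. The PA libraries were thus higher for MTFMT and lower for PSTK without overlap, and lay between the BSA libraries for SEPSECS.

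The 8 cytosolic members of the multi-synthetase complex differed in their median from the 12 cytosolic genes outside it, a grouping of the cytosolic genes made after the values were seen. Their median log2 fold change was -0.81, against 0.10 outside the complex. Relative to BSA replicate 1 the medians were -1.13 and 0.19, and relative to BSA replicate 2 they were -0.21 and -0.16. The distance between the medians was therefore mostly one to BSA replicate 1. Transcripts of the 8 and of the 12 also differed in GC content, with medians of 43.4% and 50%. With a trend on GC content and transcript length removed, the median log2 fold changes were -0.61 and 0.03. The part of GC content in the difference was not tested further. The list of the complex also includes its scaffold proteins, 11 genes in all, with a median log2 fold change of -0.94 against -0.12 over all genes tested. Of the 11, 0 were called by edgeR at an adjusted p under 0.05, and 3, among them AIMP1 and QARS1, were lower at an unadjusted p under 0.05, against 11.2% of all genes, while DESeq2 called 1 lower (AIMP1), against 4.34% of all genes. AIMP1 had 15.1 and 12.2 CPM in the PA libraries, against 88.0 and 20.8 CPM in BSA replicates 1 and 2. EEF1E1 had 2.09 and 1.98 CPM in the PA libraries, against 16.2 and 1.26 CPM in BSA replicates 1 and 2. AIMP2 had 84.5 and 88.4 CPM in the PA libraries, against 65.9 and 119.5 CPM in BSA replicates 1 and 2. The scaffold genes thus did not move together, since AIMP1 and EEF1E1 had BSA replicate 1 as their high library and AIMP2 had it as its low one.

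The position of a synthetase gene relative to BSA replicate 1 went with the base composition of its transcript. GC content was taken from the longest GENCODE 29 transcript of each gene and ran from 37.5% to 62.6% over the 43 genes, with a median of 46.7% for the cytosolic and 50.8% for the mitochondrial genes. Across the 43 genes, Spearman's rho between GC content and the log2 ratio was 0.727 for PA over BSA replicate 1, -0.0477 for PA over BSA replicate 2 and 0.778 for BSA replicate 2 over replicate 1. Over all genes tested the same values were 0.472, -0.0837 and 0.594. These correlations are across genes, which share libraries and are not independent replicates. In bin 3 of 10 equal bins of genes by GC content (41.5% to 43.97%), which holds 10 of the 43, BSA replicate 2 over replicate 1 had a median log2 ratio of -1.19 for the 10 and -0.65 for all genes of that bin. In bin 7 (52.29% to 55.33%), which holds 7 of the 43, the medians were 0.51 for the 7 and 0.35 for all genes of that bin.

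Stretches of coding sequence show the contrast between genes of which BSA replicate 1 held more and genes of which it held less. They are 90 bases each from one coding exon, on the gene's strand of GRCh38 with GENCODE 29 exons, and G and C are in capitals. Each was chosen as the coding window whose GC share was closest to that of its transcript. The stretches therefore illustrate the transcript values and add no separate evidence. EPRS1 (chr1:220024290-220024379, minus strand) and RARS1 (chr5:168492695-168492784, plus strand) come from transcripts with 43.2% and 41.4% GC, and AARS1 (chr16:70277062-70277151, minus strand) and WARS1 (chr14:100361811-100361900, minus strand) from transcripts with 53.5% and 51.8% GC.
EPRS1: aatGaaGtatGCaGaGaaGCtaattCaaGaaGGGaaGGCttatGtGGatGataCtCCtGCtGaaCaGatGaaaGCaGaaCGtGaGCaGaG
RARS1: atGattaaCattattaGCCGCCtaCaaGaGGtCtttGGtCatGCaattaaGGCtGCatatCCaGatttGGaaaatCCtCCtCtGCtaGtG
AARS1: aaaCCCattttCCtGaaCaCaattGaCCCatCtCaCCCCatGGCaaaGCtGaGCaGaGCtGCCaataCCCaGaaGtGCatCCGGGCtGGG
WARS1: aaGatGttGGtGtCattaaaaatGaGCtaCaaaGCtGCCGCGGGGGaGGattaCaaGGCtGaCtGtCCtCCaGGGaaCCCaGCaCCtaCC

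The EPRS1 and RARS1 stretches hold 39 and 37 G or C bases, and the AARS1 and WARS1 stretches hold 48 and 47, as their choice by GC share fixed. When a smooth trend of level on GC content and transcript length was removed in each library, EPRS1 differed between BSA replicates 2 and 1 by -1.53 on the log2 scale, against -2.20 before. For AARS1 it was 0.79, against 1.13 before. A part of each gap was thus shared with other genes of the same composition and a part was not. The trend-removed edgeR fit called QARS1 lower in PA, with a fitted log2 difference of -0.84 ± 0.15 (SE) and an adjusted p of 0.0433, and called no other gene of the 43. Of all genes in that fit, 5.12% were called higher and 2.51% lower. QARS1 had a transcript of 55.2% GC, and it was lower in both PA libraries than in both BSA libraries without the correction as well. The trend-removed medians of the log2 fold change were -0.18 for the cytosolic genes, -0.26 for the mitochondrial genes and -0.04 for all genes, and the complex members stood at -0.61 against 0.03 for cytosolic genes outside it. The cause of the trend was not tested.

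**Figure D3:**
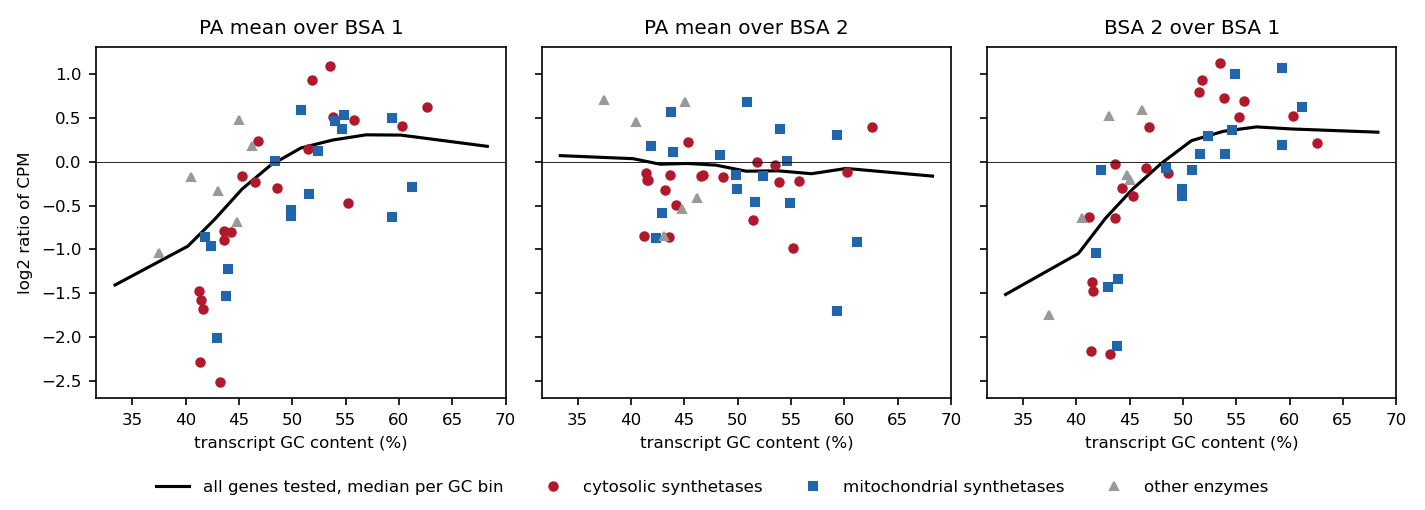
Log2 ratio of CPM against transcript GC content (percent) for the 43 genes, in 3 panels for PA over BSA replicate 1, PA over BSA replicate 2 and BSA replicate 2 over replicate 1, with the median of all genes tested in 10 bins of GC content as a line. Genes with little GC lie low and genes with more GC lie high in both panels that involve BSA replicate 1 (rho of 0.727 and 0.778), and the middle panel shows no such slope (rho of -0.0477).

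For most synthetases the PA mean was nearer to BSA replicate 2 than to BSA replicate 1. This held for 17 of 20 cytosolic genes, 11 of 17 mitochondrial genes and 2 of the 6 other enzymes, against 56.2% of all genes tested. At the same time 18 of 20 cytosolic genes had a PA mean below BSA replicate 2, all except TARS3 and VARS1, against 9 of 17 mitochondrial genes and 52.9% of all genes. For AARS1 and WARS1 these log2 ratios were only -0.036 and -0.006. With the trend on GC content and transcript length removed, the cytosolic count was 16 of 20. The cytosolic distances to BSA replicate 2 were small for most of these genes. Past 1.5-fold below it lay 4 of 20, among them QARS1, SARS1 and TARS1, against 24.4% of all genes tested. SARS1, the serine enzyme, had 413 and 408 CPM in the PA libraries, against 372 and 649 CPM in BSA replicates 1 and 2. Between the BSA libraries themselves, 5 cytosolic genes were past 1.5-fold higher in replicate 2 and 6 past 1.5-fold lower, and for mitochondrial genes the counts were 3 and 4. Over all genes tested, 19.9% were past that fold higher and 28.8% lower. In 13 of 20 cytosolic and 10 of 17 mitochondrial genes the BSA libraries were farther apart than the group means, against 53.1% of all genes. These counts of sides and distances were added after the values had been seen.

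A set of 15 pairings of a cytosolic with a mitochondrial enzyme for one amino acid was compared on the deposited FPKM values (fragments scaled to gene length and library size). The phenylalanine pairing took the alpha subunit FARSA alone and left out FARSB. The median FPKM of the cytosolic genes was 30.6 and 28.6 in the PA libraries and 41.2 and 38.8 in the BSA libraries. For mitochondrial genes it was 5.34 and 5.20 FPKM in the PA libraries and 6.63 and 5.08 FPKM in the BSA libraries. The ratio of the cytosolic to the mitochondrial FPKM was above 1 in every library for 12 of 15 pairs, the exceptions being those for leucine, isoleucine and histidine. The gene lengths behind the FPKM values exceeded the longest GENCODE transcript in 28 of the 29 genes of these pairs and were more than 2 times as long in 10, as in IARS1 with 22420 against 4656 bases, so a level set between different genes depends on the length used. Per base of the longest transcript 14 of the 15 pairs were above 1 in every library, all except leucine. The length does not affect the comparison of one pair between libraries.

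For tryptophan, the ratio WARS1 to WARS2 was 30.7 and 24.6 in the PA libraries, against 7.38 and 15.1 in the BSA libraries. For leucine, the ratio LARS1 to LARS2 was 0.777 and 0.565 in the PA libraries, against 2.98 and 1.22 in the BSA libraries. Per base of the longest transcript, the leucine ratio was 1.29 and 0.935 in the PA libraries, against 4.93 and 2.03 in the BSA libraries, and the tryptophan ratio was 46.4 and 37.1 in the PA libraries, against 11.1 and 22.8 in the BSA libraries. For threonine, the ratio TARS1 to TARS2 was 4.92 and 4.27 in the PA libraries, against 11.1 and 8.41 in the BSA libraries. These ratios differed between the groups without overlap, in opposite directions for tryptophan and for leucine and threonine. Of the 15 pairs, 4 had a higher ratio in both PA libraries (phenylalanine, serine, tryptophan, valine), 4 a lower one (arginine, leucine, proline, threonine) and 7 had overlapping groups. The phenylalanine result holds for FARSA only. FARSB had 4.48 and 3.57 FPKM in the PA libraries, against 12.85 and 4.62 in BSA replicates 1 and 2. FARS2 had 4.47 and 4.59 FPKM in the PA libraries, against 4.15 and 5.08 in the BSA libraries. FARSB thus lay below FARS2 in PA replicate 2 and BSA replicate 2. Among single genes, 26.5% of all tested had both PA libraries above both BSA libraries, and 32.7% both below. VARS2, in the valine pair, had only 13 to 61 counts per library. GC content also differed within pairs, with 51.8% in WARS1 and 42.4% in WARS2, and 41.5% in LARS1 and 50.8% in LARS2. For threonine it was 43.6% in TARS1 and 54.6% in TARS2, and for serine 51.5% in SARS1 and 61.2% in SARS2. Its part in these ratios was not tested. No test across pairs was made, and EPRS1 stands in the pairs for glutamate and for proline.

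**Figure D4:**
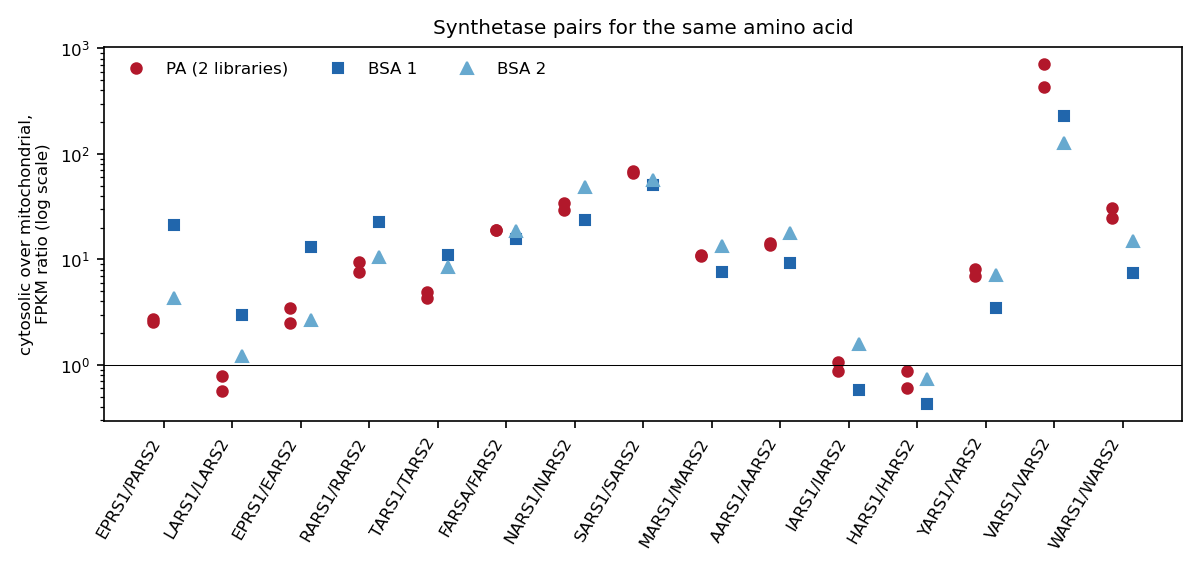
Ratio of the cytosolic to the mitochondrial FPKM (log scale) for 15 amino acid pairings, with the 2 PA libraries as circles on the left and BSA replicate 1 (square) and BSA replicate 2 (triangle) on the right of each pairing, and a line at 1. The tryptophan and valine ratios are higher and the proline, leucine, arginine and threonine ratios lower in both PA libraries than in both BSA libraries.

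Genes of translation elongation and of tRNA processing and export were described from a list of 12, of which 11 were tested and 1 is the synthetase VARS1. Their median log2 fold change was -0.74, against -0.12 for all genes, and 0 were called by edgeR at an adjusted p under 0.05. At an unadjusted p under 0.05, 1 was higher (VARS1) and 4 were lower (EEF1B2, EEF1D, RAN, XPOT), against 13.1% and 11.2% of all genes, and DESeq2 called 1 lower (XPOT), against 4.34% of all genes. XPOT, the exporter of tRNA from the nucleus, had 120 and 122 CPM in the PA libraries, against 553 and 211 CPM in BSA replicates 1 and 2. SSB, the La protein that binds new tRNA transcripts, had 25.7 and 22.3 CPM in the PA libraries, against 117 and 24.8 CPM in BSA replicates 1 and 2. TRNT1, which adds the CCA end of tRNA, had 16.7 and 15.7 CPM in the PA libraries, against 61.2 and 20.2 CPM in BSA replicates 1 and 2. XPOT was below both BSA libraries, while SSB and TRNT1 were near BSA replicate 2. With the GC trend removed, XPOT and EEF1D were called lower, against 2.51% of all genes.

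The 18 genes of mitochondrial translation, which include 4 of the 43, had a median log2 fold change of -0.22, against -0.12 for all genes. Of these, 0 were called by edgeR at an adjusted p under 0.05, as were 0.0% of all genes. At an unadjusted p under 0.05, 0 were higher and 0 lower, against 13.1% and 11.2% of all genes. DESeq2 also called 0, against 6.11% of all genes higher and 4.34% lower. Their largest log2 fold changes were -1.11 for MTIF2, -0.84 for TRIT1 and -0.71 for PUS1.

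The 27 ATF4 target genes, which include no synthetase of the 43, also lay apart in the BSA libraries. Their median log2 ratio was 0.10 for PA over BSA replicate 1, -0.60 for PA over BSA replicate 2 and 0.61 for BSA replicate 2 over replicate 1. The same medians over all genes were -0.15, -0.05 and -0.02. With edgeR, 0 of the 27 had an adjusted p under 0.05, and 4 were higher and 4 lower at an unadjusted p under 0.05, near the 13.1% and 11.2% of all genes. DESeq2 called 2 (ATF3 higher and SLC7A11 lower), against 6.11% and 4.34% of all genes. ATF3 had 531.5 and 489 CPM in the PA libraries, against 98.8 and 207 CPM in the BSA libraries, which edgeR fitted as 1.80 ± 0.41 (SE) on the log2 scale, with adjusted p = 0.0997. SLC7A11, the cystine transporter, had 18.4 and 17.9 CPM in the PA libraries, against 95.3 and 28.4 CPM in BSA replicates 1 and 2. SLC3A2, its partner chain, had 1326 and 1312 CPM in the PA libraries, against 487 and 783 CPM in the BSA libraries. The transporter chains thus lay on opposite sides of the BSA libraries. With the GC trend removed, SLC3A2 was called higher and GPT2 lower, against 5.12% and 2.51% of all genes. ATF3 and SLC7A11 were not called in that fit. Of the 20 cytosolic synthetases, 9 were lower in BSA replicate 1 than in BSA replicate 2, as the median of this list was, and 11 were higher in it. Median GC content was 52.3% for this list, against 49.3% for all genes tested. With the trend on GC content and transcript length removed, the list's median of BSA replicate 2 over replicate 1 was 0.45. Of the cytosolic synthetases, 12 were then lower in BSA replicate 1 and 8 higher. The part of GC content in this comparison was not tested further.

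Promoter sequences (250 bases before the start, RefSeq, GRCh38.p14) were found for 33 of the 43 genes and searched on both strands for TGATGNAA, the core of the C/EBP-ATF composite element that ATF4 binds. Of the 33, 3 held it (9.09%), against 870 of 27305 promoters (3.19%). These were AARS1 (chr16:70289664-70289715), IARS1 (chr9:92293698-92293732) and YARS2 (chr12:32756065-32756116), all on the minus strand. By the gene coordinates in the deposited table AARS1 and IARS1 start farther upstream than in RefSeq, so that their matches lie inside the gene there. They are shown on the gene's strand with the match, which is on the other strand in AARS1 and IARS1, in capitals.
AARS1: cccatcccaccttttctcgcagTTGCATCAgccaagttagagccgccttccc
IARS1: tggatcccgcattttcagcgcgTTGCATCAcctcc
YARS2: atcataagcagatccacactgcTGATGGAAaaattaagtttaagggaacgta

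AARS1 was at 1442 and 1438 CPM in the PA libraries, against 674 and 1477 CPM in the BSA libraries. IARS1, the isoleucine enzyme, was at 279 and 249 CPM in the PA libraries, against 455.5 and 292 CPM in the BSA libraries. YARS2, the mitochondrial tyrosine enzyme, was at 18.9 and 16.7 CPM in the PA libraries, against 27.3 and 22.02 CPM in the BSA libraries. Against BSA replicate 1, the PA mean was higher for AARS1 and lower for IARS1 and YARS2. Against BSA replicate 2, the log2 ratios of AARS1, IARS1 and YARS2 were -0.04, -0.15 and -0.31. The 3 genes that share the letters thus differed in direction against BSA replicate 1 only. The palindrome TGACGTCA was in 0 of the 33 and in 1.77% of all promoters. A match describes letters in this window only.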

How the data were processed

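The submitters' processing notes name the build hg38 and the tools HISAT2, StringTie and SAMtools; versions, counting settings and strand use were not given. The authors deposited raw read counts per gene, whole numbers whose totals differ by library, and FPKM values, per the file headers. Groups follow the sample titles.

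The counts went into edgeR 4.0.16 under R 4.3.3 (TMM factors, filterByExpr, quasi-likelihood test, no replicate block), with Benjamini-Hochberg adjustment over 17449 genes. Standard errors were |log2 fold change| / sqrt(F). Levels are CPM on the library total. Log2 ratios between single libraries added 0.5 counts and used total counts, so they differ from edgeR's fold changes by the TMM factors: with total counts alone the all-gene median is -0.19 instead of -0.12 (log2). The GC and length trend was a loess fit (span 0.3) per library over 16596 genes, 95.1% of those tested. Alternatives used DESeq2 1.42.0 and limma 3.58.1. The scripts were tested on simulated counts. Replicates were compared by chi-square per gene: the median was 1.91 in PA and 16.5 in BSA, and 0.455 would be sampling noise, so no library was a copy of its replicate.

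Values in every library are given for the 6 genes with the largest rise and the 6 with the largest fall among those of mean at least 1 CPM, for genes past 1.5-fold against both BSA libraries, the dual-compartment genes, EPRS1, the 4 with the largest BSA gap and the non-synthetases; others were chosen after their values were seen. Of the 43 genes, 2 enter the counts and medians but are not reported here. The genes, lists and rules were chosen with earlier results of these data known.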

Additional observations from a re-analysis of the deposited data

How the results depend on the processing

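The median log2 fold change was negative for cytosolic and for mitochondrial genes under every alternative run. The all-gene median was negative in these runs as well, except without BSA replicate 1, where it was 0.02. Of all genes, DESeq2 called 1824, the trend-removed fit 1267, no filter 1302 and a replicate block 537, while limma on log2(FPKM + 0.1), limma on log2(FPKM + 1) and limma-voom called 1 each; leaving out 1 library gave 9 to 10467. Deviations of same-numbered libraries had a correlation of 0.00298 across genes. With 2 libraries per group, that value cannot show whether same-numbered libraries were handled together, so pairing remains unknown. The replicate block changed no call at an adjusted p under 0.05 among the 43 genes.

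Cytosolic genes higher at an unadjusted p under 0.05 (1) numbered 0 with DESeq2, the trend removed, the replicate block and upper-quartile factors, and 0 to 8 without 1 library. Those lower (4) numbered 2 with RLE factors and limma-voom and 7 with no filter, and 0 to 9 without 1 library. Mitochondrial genes higher (1) numbered 0 with the trend removed, log2(FPKM + 1) and the replicate block, and 0 to 5 without 1 library. Those lower (1) numbered 2 with DESeq2, no filter and upper-quartile factors and 3 with the trend removed, and 0 to 7 without 1 library. The cytosolic median log2 fold change was -0.245 and -0.240 on FPKM with 0.1 and 1 added, -0.174 with limma-voom and with the replicate block, -0.273 with total counts alone and -0.234 with upper-quartile factors, and -0.187 to -0.108 without 1 library. The mitochondrial one was -0.197 with log2(FPKM + 1) and -0.451 to -0.0516 without 1 library.

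With TMM-normalised library sizes, the cytosolic median log2 ratios were -0.167 (PA over BSA replicate 1), -0.140 (PA over BSA replicate 2) and 0.00282 (BSA replicate 2 over 1), and the mitochondrial one of PA over BSA replicate 1 was -0.270. With the trend removed, the cytosolic values over BSA replicate 1 were -0.0685 for PA and 0.152 for BSA replicate 2, and the mitochondrial ones were -0.202 for PA over BSA replicate 1, -0.0482 for PA over BSA replicate 2 and -0.210 for BSA replicate 2 over 1. Without 1 PA library, the cytosolic medians ran from -0.294 to -0.258 (over BSA replicate 1) and -0.209 to -0.124 (over BSA replicate 2), and the mitochondrial ones from -0.327 to -0.242 and -0.145 to 0.0333. Cytosolic genes past 1.5-fold of both BSA libraries (2) numbered 1 with the trend removed, 6 at a lower limit (log2 ratio 0.322), 0 at 2-fold and 2 to 4 without 1 PA library. Mitochondrial ones (4) numbered 2 with TMM-normalised sizes, 1 on FPKM, 2 with the trend removed, 0 at 2-fold and 2 to 4 without 1 PA library. Shares of all genes were given above for the 1.5-fold limit and its trend-removed form only. The counts at the other settings therefore have no background beside them.

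Removing the trend turned the sign of 7 genes, to log2 fold changes of 0.00702 for KARS1, 0.407 for SEPSECS, -0.0388 for YARS1, -0.176 for CARS2, -0.201 for FARS2, 0.130 for RARS2 and -0.0488 for MARS1. CARS2 also came to -0.00937 with a filter of 1 CPM, -0.0489 with total counts alone and -0.0322 with upper-quartile factors, and FARS2 to -0.0180 and -0.0160 on FPKM and -0.0256 with total counts alone. Leaving out 1 library turned the sign of further genes, with log2 fold changes from -0.594 to 0.252 for SARS1, -0.350 to 0.285 for GATB, -1.43 to 0.633 for IARS2, -0.935 to 0.776 for SEPSECS, -0.546 to 0.0208 for HARS2, -0.0682 to 0.525 for QRSL1, -0.155 to 0.589 for YARS1, -0.401 to 0.649 for CARS2, -1.11 to 0.183 for NARS2, -0.0992 to 0.236 for FARS2, -0.737 to 0.257 for RARS2, -0.158 to 0.618 for MARS1, -0.0884 to 0.348 for HARS1, -0.0549 to 0.518 for FARSA and -0.0547 to 0.295 for TARS3; for HARS2 the sign turned without PA replicate 2, for GATB and CARS2 without PA replicate 1 and also without a BSA library, and for the others without a BSA library. The causes were not tested. VARS2 has no value under the filter of 1 CPM, and its 13 to 61 counts per library limit its precision.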
